A study of Mus musculus with 3 samples.

Results

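The genes described here are 10 feedback inhibitors of MAP kinase signalling, the dual-specificity phosphatase genes Dusp1, Dusp2, Dusp4, Dusp5, Dusp6 and Dusp10, the Sprouty genes Spry1 and Spry2 and the Sprouty-related genes Spred1 and Spred2. They were chosen by symbol, and all 10 were found among the 44788 gene symbols of the deposited count table. The table held 3 RNA-seq libraries of splenic T lymphocytes of female BALB/c mice 6 to 8 weeks of age, isolated with beads against CD90.2 (Thy1, a T cell surface protein) and kept for 15 h in culture with LZ-8. This is an immunomodulatory protein of the fungus Ganoderma lucidum, and its dose is not given in the sources used here. The 3 libraries form a single group, replicates 1, 2 and 3, and untreated cells were not analysed here, so nothing below measures a response to it. The labels name no separate mice or cultures for the replicates, so every p-value between them measures only the spread between these libraries, which may be technical.

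In T cells the receptor activates Ras through the exchange factors RasGRP1 and SOS, and Ras passes the signal through Raf and MEK kinases to the ERK kinases. MAP kinases are switched off by dual-specificity phosphatases, which remove the phosphates from the threonine and the tyrosine of their activation loop. Many of these phosphatase genes are themselves transcribed in response to ERK, which closes a negative feedback loop. Sprouty and Spred proteins act higher up, between the receptor and Raf, and Spred proteins bring the Ras GTPase-activating protein neurofibromin (Nf1) to the membrane.

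All 10 are protein-coding genes in GENCODE vM21 (GRCm38). The phosphatase genes lie on separate chromosomes, with Dusp1 at chr17:26505590-26562128, Dusp2 at chr2:127336159-127338376, Dusp4 at chr8:34807297-34819894, Dusp5 at chr19:53529109-53542431, Dusp6 at chr10:99263231-99267489 and Dusp10 at chr1:184013302-184075636. The Sprouty and Spred genes are annotated with Spry1 at chr3:37639947-37644598, Spry2 at chr14:105891947-105896819, Spred1 at chr2:117121374-117182279 and Spred2 at chr11:19924375-20024026.

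The promoters of 5 of the genes are shown from RefSeq (GRCm38.p6), as the 250 bases before the start annotated there, 5′ to 3′ on the gene's strand. RefSeq and GENCODE starts can differ. The RefSeq windows of Dusp1 and Dusp10 lie inside the GENCODE extents given above, downstream of the GENCODE start. Dusp2 is shown as the most abundant of the 10, Dusp1 and Dusp5 because they were the members whose window held a cyclic AMP response element or a CArG box, and Spry1 and Spry2 as the pair of close relatives whose levels lay furthest apart. They lie at chr2:127335909-127336158 on the plus strand (Dusp2), chr17:26508473-26508722 on the minus strand (Dusp1), chr19:53528895-53529144 on the plus strand (Dusp5), chr3:37639697-37639946 on the plus strand (Spry1) and chr14:105896820-105897069 on the minus strand (Spry2). Capitals mark the GC box (GGGCGG on either strand) in Dusp2 and Spry1, the cyclic AMP response element TGACGTCA in Dusp1 and the CArG box, the sequence bound by serum response factor, in Dusp5. The Spry2 stretch held no GC box.
Dusp2: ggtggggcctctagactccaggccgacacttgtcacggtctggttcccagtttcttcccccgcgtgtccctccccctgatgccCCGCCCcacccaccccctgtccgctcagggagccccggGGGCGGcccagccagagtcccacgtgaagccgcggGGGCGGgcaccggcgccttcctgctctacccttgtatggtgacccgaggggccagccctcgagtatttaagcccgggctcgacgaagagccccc
Dusp1: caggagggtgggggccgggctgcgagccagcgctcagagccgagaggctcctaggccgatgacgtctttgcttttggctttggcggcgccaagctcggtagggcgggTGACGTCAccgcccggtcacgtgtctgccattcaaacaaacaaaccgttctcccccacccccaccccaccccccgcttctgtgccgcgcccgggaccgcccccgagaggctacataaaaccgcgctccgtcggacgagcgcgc
Dusp5: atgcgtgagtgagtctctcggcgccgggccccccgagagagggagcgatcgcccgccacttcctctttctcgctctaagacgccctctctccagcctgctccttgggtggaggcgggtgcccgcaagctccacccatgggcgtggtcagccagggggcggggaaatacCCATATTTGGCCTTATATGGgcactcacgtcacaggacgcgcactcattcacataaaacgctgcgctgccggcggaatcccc
Spry1: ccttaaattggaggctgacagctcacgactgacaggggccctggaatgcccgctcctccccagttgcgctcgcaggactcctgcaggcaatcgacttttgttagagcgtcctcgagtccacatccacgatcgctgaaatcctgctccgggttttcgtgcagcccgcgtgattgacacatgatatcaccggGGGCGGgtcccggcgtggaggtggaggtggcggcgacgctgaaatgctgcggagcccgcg
Spry2: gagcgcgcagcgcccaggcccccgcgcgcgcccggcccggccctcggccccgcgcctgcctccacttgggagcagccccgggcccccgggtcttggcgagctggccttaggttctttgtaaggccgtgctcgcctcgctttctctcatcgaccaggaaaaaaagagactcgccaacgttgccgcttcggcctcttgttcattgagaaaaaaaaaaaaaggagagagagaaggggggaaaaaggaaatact

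Of the 10 genes 9 had a RefSeq promoter window, which runs from 250 bases before to 50 bases after the start. Each motif was searched on both strands, with overlapping matches kept. TGACGTCA was found in 1 of the 9 windows (Dusp1, at -143 to -136 from the start), and 1.79% of all 32851 windows held it. The CArG box was found in 1 window (Dusp5), as a pair of adjoining matches, CCATATTTGG at -82 to -73 and CCTTATATGG at -72 to -63, and 1.63% of all windows held at least 1 match. GC boxes were found in 7 of the 9 windows, against 35.7% of all windows, and the ETS motif CCGGAA in 1 (Spry2, at 34 to 39), against 14.9%. The AP-1 motif TGANTCA and the TATA motif TATAAA, which 7.81% and 13.6% of all windows held, were not in these 9. The GC content of the printed stretches ran from 62.4% (Spry1 and Spry2) to 70.4% (Dusp2), above the 53.2% over the same stretch of all windows. A match describes these letters and was not tested for binding.

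The libraries held 12669690 to 19041670 counts, so that 1 CPM (a count per 1000000 counts of the library) stood for 12.7 to 19.0 reads. The markers were those of the labelled cell type. The 9 T cell genes summed to 3812 ± 65.8 CPM (SD, n = 3), while the summed levels of 7 lists of other cell types lay between 0.245 and 17.3 CPM, highest for B cells, and 8 of those 34 markers, among them Csf1r, C1qa and Elane, had no read. Fewer cells with a transcript and less of it in each cell cannot be told apart in such bulk samples.

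Together the 10 genes took up 505, 505 and 502 CPM in replicates 1, 2 and 3. Of these genes 9 averaged at least 10 CPM, as did 69.2% of the 13500 genes tested (1 CPM or more in at least 2 libraries), and 1 exceeded 100 CPM, as did 19.0% of them. Their median of 46.6 CPM stood beside a median of 27.0 CPM over all genes tested. Dusp2 alone made up 28.7 ± 0.572% of the reads of the 10 genes, Dusp5 16.9 ± 0.805% and Spry1 11.4 ± 0.404% (SD, n = 3). Spry2 contributed 0.224 ± 0.0495%.

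**Figure D1:**
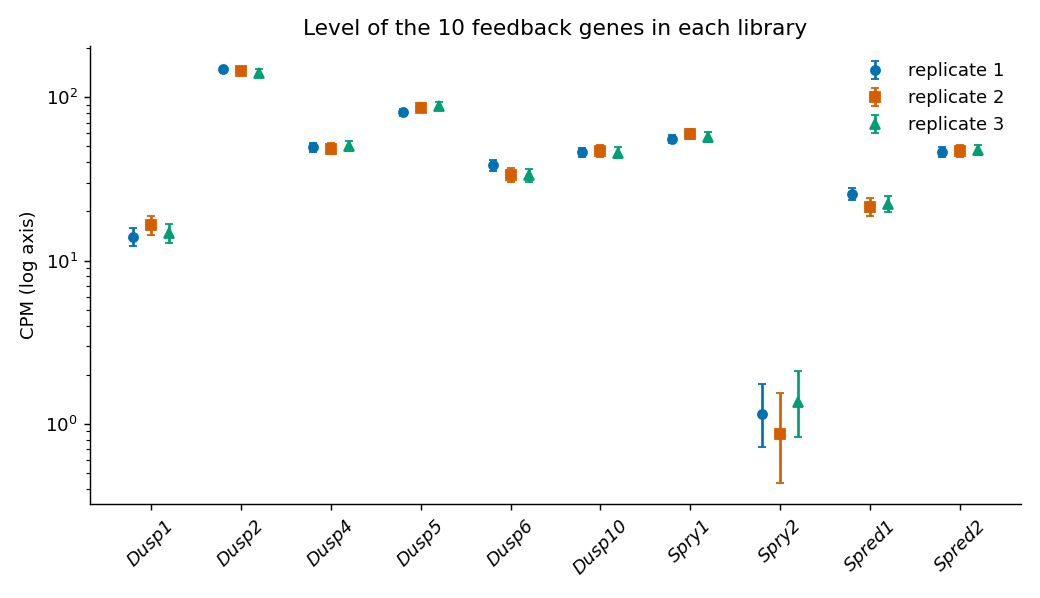
Level of each of the 10 genes (CPM, log axis) in replicates 1, 2 and 3, with the exact Poisson 95% interval of each count, which covers counting error only. Dusp2 stands highest at 142 to 148 CPM and Spry2 lowest at 0.868 to 1.36 CPM, and for the 9 genes other than Spry2 the highest library lies at most 1.20-fold above the lowest.

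The inducible nuclear phosphatases carried most of the phosphatase transcripts. Dusp2 (PAC-1, a phosphatase of activated lymphocytes) had 2822, 1826 and 2087 reads, or 148, 144 and 142 CPM, in replicates 1, 2 and 3. Its mean of 145 ± 3.23 CPM (SD, n = 3) was above that of 87.6% of the genes tested. Dusp5, which acts on ERK in the nucleus, had 1541, 1096 and 1300 reads, or 80.9, 86.5 and 88.3 CPM, with a mean of 85.3 ± 3.86 CPM. Replicate 1 was the lowest for Dusp5 and the highest for Dusp2.

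Dusp4 (MKP-2, a nuclear phosphatase of ERK and JNK) had 939, 615 and 741 reads, or 49.3, 48.5 and 50.4 CPM in replicates 1, 2 and 3. Dusp1 (MKP-1, which acts on p38, JNK and ERK) was the lowest of the nuclear phosphatases with 266, 208 and 216 reads, or 14.0, 16.4 and 14.7 CPM. Its mean of 15.0 ± 1.26 CPM exceeded that of 37.8% of the genes tested. Among the 4 nuclear phosphatases Dusp1 lay below the median of the genes tested and the other 3 above it.

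Dusp6 (MKP-3, the cytoplasmic phosphatase selective for ERK) had 728, 423 and 490 reads, or 38.2, 33.4 and 33.3 CPM in replicates 1, 2 and 3. Replicate 1 was the high one, and replicates 2 and 3 were nearly equal. Dusp10 (MKP-5, which acts on p38 and JNK) had 877, 596 and 672 reads, or 46.1, 47.0 and 45.7 CPM. It had the narrowest spread of the 10, with an SD of 1.53% of its mean, where counting alone gives 3.79%.

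The Sprouty genes differed most. Spry1, an inhibitor of Ras and ERK signalling that is expressed in T cells, had 1055, 753 and 838 reads, or 55.4, 59.4 and 56.9 CPM in replicates 1, 2 and 3. Its relative Spry2 had 22, 11 and 20 reads, or 1.16, 0.868 and 1.36 CPM. The Poisson 95% intervals of Spry2 ran from 0.724 to 1.75 CPM, 0.433 to 1.55 CPM and 0.830 to 2.10 CPM in the same order, so its libraries were not distinguishable at this depth. Spry2 reached 1 CPM in replicates 1 and 3 and so entered the test between the libraries by the narrowest margin of the 10.

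Spred2 and Spred1 were both present. Spred2 had 878, 595 and 701 reads, or 46.1, 47.0 and 47.6 CPM in replicates 1, 2 and 3. Spred1 had 487, 270 and 326 reads, or 25.6, 21.3 and 22.2 CPM, with replicate 1 the high one. Spred1 had the longest exon sequence of the 10, 6784 bases against 2003 for Dusp2, which bears on every comparison of read counts between these genes.

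Levels were therefore set against each other per kilobase of annotated exon. Dusp2 led with 72.3 ± 1.61 CPM per kilobase, and its 3 values, from 70.8 to 74.0, lay above all others. Dusp5 followed at 34.5 ± 1.56, Spry1 at 19.7 ± 0.700, Dusp4 at 18.0 ± 0.332, Dusp10 at 15.2 ± 0.233 and Dusp6 at 11.2 ± 0.902 CPM per kilobase. Below them stood Spred2 at 10.2 ± 0.166, Dusp1 at 4.54 ± 0.380, Spred1 at 3.39 ± 0.333 and Spry2 at 0.540 ± 0.118 CPM per kilobase (SD, n = 3 each). The median over tested genes with a known length was 8.27 CPM per kilobase, so 7 of the 10 genes were above it and Dusp1, Spred1 and Spry2 below.

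In all 45 pairs of the 10 genes the length-scaled values of the 3 libraries did not overlap. Between neighbours in the order the narrowest steps were Spry1 over Dusp4, a log2 ratio of 0.13 ± 0.07, and Dusp6 over Spred2, 0.13 ± 0.14 (SD, n = 3), a step no wider than its spread. Without length scaling Dusp10 and Spred2 overlapped, and the rest of the pairs did not. Dusp5 shares 547 exon bases with the antisense gene AC137853.2, and Spry1 shares 710 with Gm42922 on the opposite strand, while Dusp1 shares 11 with Ergic1. Of the 31-base words of Dusp5 and Spry1, 21.2% and 23.1% were found in the transcripts of some other gene too. Neither partner is listed in the table under that name, and the use of strand is not given in the sources used here, so reads of such partners could have been counted with Dusp5 and Spry1. Of the words of the other 8 genes at most 4.20% (Spred2) also occurred in another gene.

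Pairs of genes, chosen with earlier results of these data known, were compared within each library. Spry1 stood 36.0-fold above Spry2 per kilobase, a log2 ratio of 5.07, 5.56 and 4.88 in replicates 1, 2 and 3 (mean 5.17 ± 0.35). The nuclear ERK phosphatase Dusp5 stood 3.09-fold above the cytoplasmic Dusp6 (1.63 ± 0.18), and Dusp10 stood 1.36-fold above Dusp6 (0.45 ± 0.12), each in 3 of 3 libraries. Dusp1 was far below Dusp2 (-3.99 ± 0.14), Dusp4 below Dusp5 (-0.93 ± 0.06) and Spred1 below Spred2 (-1.58 ± 0.16), again in 3 of 3 libraries (SD, n = 3). In replicate 1 Dusp5 made up 67.9% of the reads of Dusp5 and Dusp6 (exact 95% interval 66.0 to 69.8%), below the 72.2% of replicate 2 (69.8 to 74.4%) and the 72.6% of replicate 3 (70.5 to 74.7%).

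An exact two-sided sign-flip permutation test over the libraries gave p = 0.25 for each of the 6 pairs (adjusted p = 0.25), the smallest that 3 libraries allow. No pair could therefore have passed a threshold of 0.05.

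**Figure D2:**
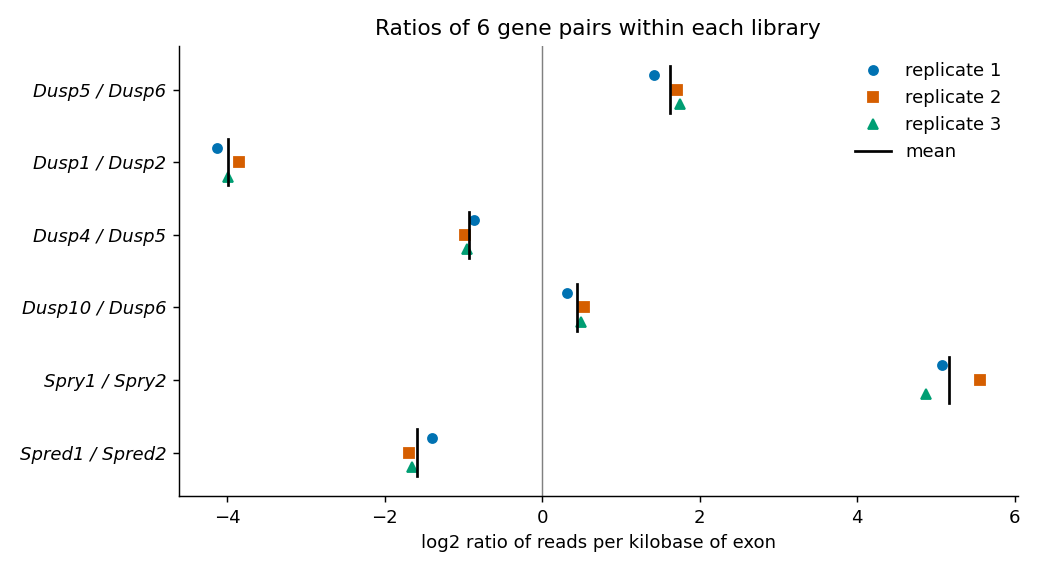
Log2 ratio of reads per kilobase of exon for 6 gene pairs, each symbol a library and the vertical bar the mean of the 3. Spry1 to Spry2 lies furthest above 0 (mean 5.17) and Dusp1 to Dusp2 furthest below (mean -3.99), and the 3 values of each pair fall on the same side of 0.

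For none of the 10 genes did the variation between the libraries pass the test for more than counting error. In edgeR's likelihood-ratio test at a dispersion of 0, which sets these libraries and no conditions against each other, 0 of the 10 passed an adjusted p under 0.05 (Benjamini-Hochberg over 13500 genes), where 13.7% of all genes tested passed. At an unadjusted p under 0.05 there were 3 of the 10, and 27.8% of all genes. A chi-square test of Poisson counts called 0 of the 10 after adjustment, where 13.6% of all genes passed, and 2 (Dusp6 and Spred1) at an unadjusted p, where 27.6% did. The 10 genes had a median range of 0.12 log2 units over the libraries, against 0.17 for all genes tested. The 10 were also the more abundant, with a median of 46.6 CPM against 27.0 CPM. Counting error widens the range of genes with fewer reads, and the ranges were not matched for abundance. For 4 of the 10 (Dusp4, Dusp10, Spry2 and Spred2) the SD over the libraries was smaller than counting error alone gives. An SD from 3 libraries can fall below counting error by chance. The share of all genes for which it did was not computed, so this count does not set the 10 genes apart.

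The 3 genes under the unadjusted threshold were Dusp6, Spred1 and Dusp5. Dusp6 had a range of 0.19 log2 units over the libraries (edgeR, adjusted p = 0.129), Spred1 one of 0.26 (edgeR, adjusted p = 0.139) and Dusp5 one of 0.14 (edgeR, adjusted p = 0.140). Replicate 1 stood apart from the others in each, high in Dusp6 and Spred1 and low in Dusp5. Without replicate 1 edgeR's adjusted p was 0.989 for Dusp6, 0.826 for Spred1 and 0.782 for Dusp5, and 0 of the 9 genes then tested had an unadjusted p under 0.05, against 21.2% of all genes tested. The 3 genes and replicate 1 were singled out from these same values, so the higher p without replicate 1 is no separate evidence about that library. Without replicate 2 there were 2 (Dusp5 and Dusp6), against 21.1% of all genes, and without replicate 3 there were 2 of 9 (Dusp6 and Spred1), against 18.3%. The adjusted p of these 3 genes was at least 0.103 without replicate 2 and at least 0.147 without replicate 3 (edgeR). Replicate 1 was also the library with the highest Rn18s-rs5 (10920, 9686 and 8858 CPM in replicates 1, 2 and 3) and Malat1 (1781, 1600 and 1364 CPM), and the part of these in the values of the 3 genes was not tested.

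**Figure D3:**
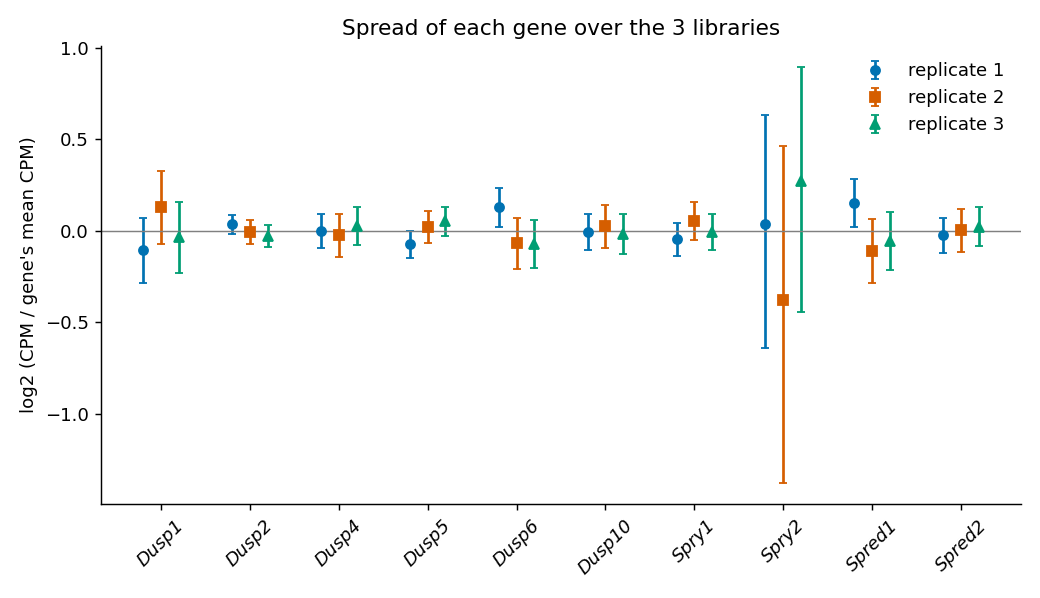
Log2 of each library's CPM over the mean of the gene, with exact Poisson 95% intervals, for replicates 1, 2 and 3 of the 10 genes. Most symbols lie near 0, the bars of Spry2 (22, 11 and 20 reads) are the widest, and replicate 1 lies above the others for Dusp6 and Spred1 and below them for Dusp5.

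The 4 other MAP kinase phosphatases were lower than Dusp2, Dusp4, Dusp5, Dusp6 and Dusp10. Dusp7 (cytoplasmic, of ERK), which was above Dusp1, stood at 6.00 ± 0.485, Dusp16 (of JNK and p38) at 3.92 ± 0.231, Dusp8 at 0.708 ± 0.220 and Dusp9 at 0.113 ± 0.0537 CPM per kilobase (SD, n = 3). The 6 phosphatase genes among the 10 held 93.6 ± 0.416% of the summed length-scaled level of the 10 catalytically active MAP kinase phosphatases, and the 4 nuclear ones alone 77.7 ± 0.468%. The phosphatases directed at p38 and JNK (Dusp8, Dusp10 and Dusp16) summed to 19.8 ± 0.131 CPM per kilobase and the cytoplasmic ones of ERK (Dusp6, Dusp7 and Dusp9) to 17.3 ± 0.778. The 4 nuclear phosphatases summed to 129 ± 0.341 CPM per kilobase.

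Of the other Sprouty and Spred genes Spry4 had 20, 11 and 15 reads and Spred3 had 23, 16 and 34 reads in replicates 1, 2 and 3. Spry3 had no read in any library, which allows a level of up to 0.237 CPM in the shallowest. Spry1, Spry2, Spred1 and Spred2 held 98.7 ± 0.306% of the length-scaled level of the 6 Sprouty and Spred genes with reads. Among 13 atypical dual-specificity phosphatases, which lack the MAP kinase binding domain, Dusp11 (an RNA phosphatase) stood at 19.3 ± 0.872 CPM per kilobase, and Dusp28 at 5.63 ± 0.163 and Dusp12 at 5.04 ± 0.0614 followed. Dusp12 shares 45.9% of its 31-base words with other genes, so its value is uncertain. Dusp13, Dusp21 and Dusp26 had no read.

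The kinases, adaptors, Ras genes and Ras regulators of the MAP kinase pathways were listed as 38 genes. Of the 38, 36 were tested and 30 averaged at least 10 CPM, beside 69.2% of all genes tested. Of the 11 genes of the p38 and JNK arms 7 did. Mapk3 (ERK1) stood at 17.7 ± 0.574 CPM per kilobase, and the MEK genes Map2k2 and Map2k1 at 26.3 ± 2.06 and 26.1 ± 0.842. Mapk14 (p38 alpha) stood at 32.5 ± 0.599, with the upstream kinases Map2k3 and Map2k7 at 38.2 ± 0.562 and 38.1 ± 0.738 CPM per kilobase. Mapk10, a JNK gene of neurons, had no read, the p38 gene Mapk13 had 0, 0 and 1 reads in replicates 1, 2 and 3, and Mapk12 and Map2k6 averaged 1.32 and 1.03 CPM. Among the upstream adaptors and exchange factors Grb2 stood at 34.7 ± 1.11, Rasgrp1 at 22.6 ± 0.337 and Shc1 at 15.1 ± 0.516 CPM per kilobase, while Rasgrp3 and Rasgrp4 averaged 1.69 and 1.52 CPM. Nras stood at 26.4 ± 1.08 and Rras2 at 18.3 ± 1.35 among the Ras genes, and Rasal3, a Ras GTPase-activating protein of blood cells, at 63.2 ± 0.922, with Rasa3 at 27.3 ± 1.41 and Rasa1 at 11.1 ± 0.380. Nf1, the partner of the Spred proteins, was at 2.26 ± 0.235 CPM per kilobase, below Spred1 and Spred2 in this measure. Of these genes Map2k7 (33.8%), Rasgrp4 (16.3%), Grb2 (12.1%), Rasal3 (11.6%) and Shc1 (10.1%) share more than 10% of their 31-base words with other genes.

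Genes that ERK induces in many cells were also measured. Ier2 stood at 65.1 ± 1.70, Egr1 at 22.3 ± 0.431 and Egr2 at 17.0 ± 0.283 CPM per kilobase, while Fos was at 3.58 ± 0.432. Etv4 and Etv5, ETS factors that often accompany Dusp6 and Sprouty genes as ERK targets, were at 0.463 ± 0.183 and 1.16 ± 0.131 CPM per kilobase. Ccnd1 (cyclin D1) had 0, 1 and 0 reads. Etv5 and Ccnd1 share 30.3% and 22.3% of their 31-base words with other genes, so their values are uncertain. The means of the 10 feedback genes ran from above that of Ier2 (Dusp2) to near that of Etv4 (Spry2).

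Of the 69 pathway genes 57 were tested between the libraries, and 5 passed in edgeR's test, among them Dusp11, Nf1, Map2k2 and Mapk8, a share to be read against the 13.7% over all genes. Map2k2 had the smallest adjusted p (3.4e-06), at 138, 148 and 161 CPM in replicates 1, 2 and 3, and Mapk8 the widest range of the 5, at 29.1, 29.4 and 22.4 CPM (edgeR, adjusted p = 0.0036). Without replicate 3 the count was 0 of the pathway genes, where 5.61% of all genes passed.

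**Figure D4:**
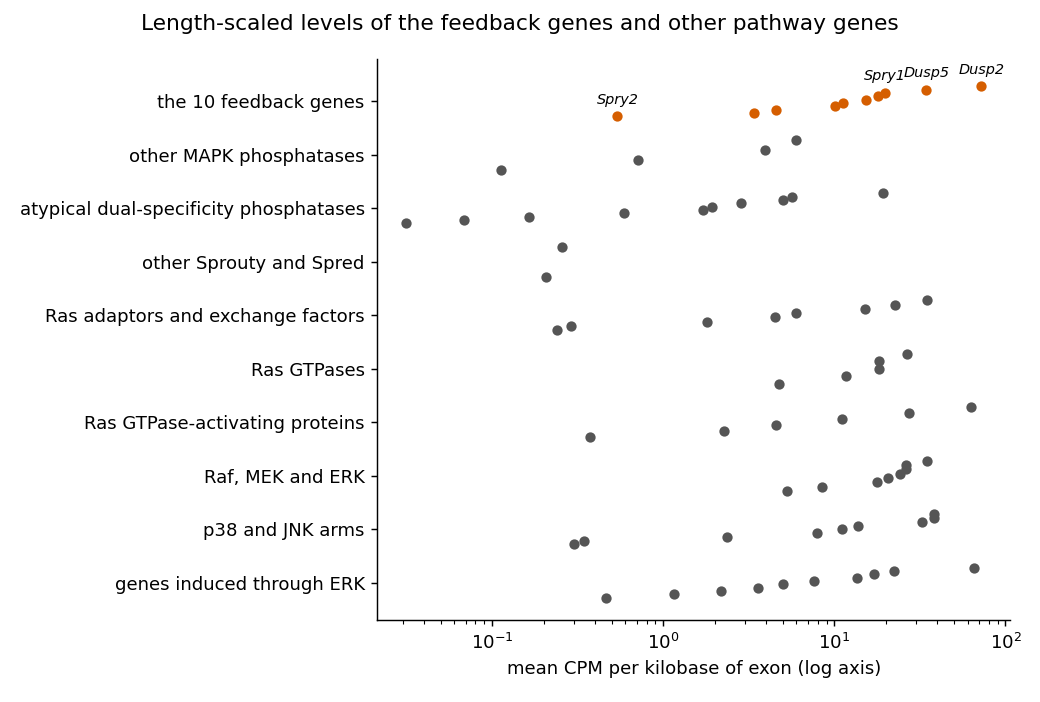
Mean CPM per kilobase of exon (log axis) of the 10 feedback genes in orange and of 9 lists of other pathway genes in grey, 1 symbol per gene; genes without a length or under 0.01 are left out. Dusp2 (72.3) lies beyond every other symbol, and Spry2 (0.540) is the lowest of the orange symbols.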

How the data were processed

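The deposited values are whole-number read counts by gene symbol, a column per library, from an Ion Proton RNA-seq kit per the labels' protocols. Of the authors' processing, mm10 is given as the build by the submitters' processing notes; aligner, counter and annotation: not given in the sources used here. No column of another sample was present (0). CPM is counts divided by the column total, and a level is a mean with the SD over the libraries. Exon lengths, positions, overlaps and shared 31-base words came from GENCODE vM21 (GRCm38, which mm10 denotes), and promoters from RefSeq. Hras is listed as Hras1.

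A single group allows no contrast, so genes that reached 1 CPM in 2 or more libraries were tested between the libraries with edgeR 4.0.16 (TMM factors 0.996 to 1.003, dispersion 0, likelihood-ratio test, Benjamini-Hochberg). On Poisson counts simulated from the 13500 genes tested, with 1 library changed, the test found 78 of the 100 genes altered 1.5-fold and 85 of the 100 altered 2-fold, and made 12 false calls. The simulated counts held counting error only, as the test assumes, so the false calls do not carry over to real libraries. Changes under 1.5-fold, where the 10 genes other than Spry2 lay, were not simulated. Ratios of 2 genes had 0.5 added to each count. Some listed genes and pairs are not reported here. The genes, lists and pairs were chosen with earlier results of these data known. Named are the 10 genes, at most the 3 highest per kilobase of each pathway list, genes without a read, genes of the pairs and genes that passed the test; Mapk3, Mapk12, Mapk13, Map2k6, Rasgrp3, Rasgrp4, Dusp9, Fos, Etv4, Etv5, Ccnd1, Rn18s-rs5 and Malat1 were added after their values were seen. Alternatives used DESeq2 1.42.0 size factors, unscaled totals, other filters, a chi-square test, other lengths, another added count and each library left out. Intervals and limits cover counting error only. Software was matplotlib 3.10.9, pandas 2.3.3, scipy 1.17.1 and numpy 2.4.6 in Python 3.11.15, and R 4.3.3.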

Additional observations from a re-analysis of the deposited data

How the results depend on the processing

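No paired analysis was possible because there is only 1 group. The count of feedback genes that varied between the libraries was 0 of 10 with DESeq2 size factors, unscaled totals, no filter beyond 1 read, the chi-square test and without replicate 2. It was 0 of 9 with a minimum of 10 CPM and without replicate 1 or 3, where Spry2 was not tested. The count over all genes was 1847, or 13.7% of those tested. It lay between 1668 and 1848 under those alternatives that kept all 3 libraries, or 7.28% (no filter beyond 1 read) to 19.8% (minimum of 10 CPM). With a library left out it lay between 742 and 1193, or 8.48%, 9.03% and 5.61% without replicates 1, 2 and 3. The count of pathway genes, 5 of 57 tested, was 8 of 40 with a minimum of 10 CPM, beside the 19.8% of all genes there. Without replicates 1, 2 and 3 it was 5 of 55, 7 of 55 and 0 of 53, to be read against the shares of all genes just given. All 6 gene ratios kept their sign under every length, added count and left-out library tried. Each pair had the same sign in all 3 libraries, so a left-out library could not have reversed it. The counts were also too large for the added count to do so, which leaves the lengths as the settings that could have. The pairs of genes that did not overlap numbered 45 under both lengths and 44 without length scaling. With each library left out (chosen after seeing the data) they again numbered 45. Values that lie apart in all 3 libraries stay apart in any subset of them, so leaving a library out could not have changed this count. Leaving mitochondrial genes and Rn18s-rs5 (3.18 to 3.28% of counts) out of the totals moved Dusp2 to 149 CPM, Dusp4 to 51.1, Dusp10 to 47.8 and Spred2 to 48.5 CPM, by more than their SD. The rest of the 10 rose by less than their SD, such as Dusp5 from 85.3 to 88.1 CPM. New totals scale all 10 by the same factor within a library. The genes moved beyond their SD are thus those with the smallest SD beside their mean. With 53 reads in all, Spry2 is the gene whose depth limits its value most.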
